A study of Mus musculus with 12 samples.

Results

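Gene expression in the liver was compared between mice that ate resveratrol-enriched rice (DJ526) and mice on the control diet (Ctrl). The comparison used 6 of the 12 arrays of the study, 3 mice per diet, chosen by the titles of the samples. All mice were C57BL/6N females, bought at 6 weeks of age and killed after 6 months on their diet, which the study calls NFD. In Ctrl its carbohydrate was corn starch and sucrose, and in DJ526 both were replaced by grain of rice DJ526, a line of the variety Dongjin that carries the stilbene synthase gene of peanut and so makes resveratrol. The other 6 mice, 3 on the Ctrl diet with added resveratrol (RS) and 3 on untransformed Dongjin rice (DJ), entered the fit as well, so that 4 groups shared 1 estimate of the spread. Within DJ526 against Ctrl, the change of carbohydrate, the transferred gene and resveratrol cannot be told apart. According to the study, cages were allotted to the diets at random, so that cage and diet cannot be told apart either. The cage of each mouse is not given in the sources used here. The 3 Ctrl arrays lay on slide 1 with DJ replicate 1, and the 3 DJ526 arrays on slide 3 with RS replicate 3, so that no slide held both diets and slide and diet cannot be told apart.

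Each array measured 39429 probes in 1 colour. A level is the log2 signal of a probe minus log2 of the 75th percentile of its array, so that 0 is the level of that percentile, and a difference of 1 is a 2-fold one. On the 6 arrays, 27854 probes were well above background throughout. Read by the brightest probe, 15816 of 20887 named genes were, and 2638 were above it on no array of the 6. Levels are compared between mice for 1 gene, never between genes. Over the 12 arrays the share of spots well above background ran from 73.0% to 80.8%. The 10 hepatocyte markers (Alb, Ttr and others) were all well above background, with a summed level of 11.54 to 11.68 in Ctrl and 11.57 to 11.66 in DJ526.

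Resveratrol is a plant stilbene that the liver takes up and conjugates with sulfate and glucuronic acid, reactions run by sulfotransferases and UDP-glucuronosyltransferases. It has been studied for effects on sirtuins, on the energy sensor AMPK, on phosphodiesterases and on the aryl hydrocarbon receptor, whose best known targets are Cyp1a1 and Cyp1a2. The liver also turns dietary sugar into fat, through the regulators Srebf1 and Mlxipl, and cholesterol into bile acids, through Cyp7a1, the rate-limiting step, and Cyp8b1, which sets the share of cholic acid. Gene lists for these roles, and for the cell types a liver piece can hold, gave the groups described here.

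Promoters are shown for some of the genes described first, namely the Cyp1a genes, which the aryl hydrocarbon receptor controls, Cyp8b1 of bile acid synthesis and a pair of Sult2a paralogs that were high in the same mice. They are the 250 bases before the start site in RefSeq (GRCm38.p6), written in the direction of the gene: Cyp1a1 at chr9:57697363-57697612 (plus strand), Cyp1a2 at chr9:57683656-57683905 (minus strand), Cyp8b1 at chr9:121916306-121916555 (minus strand), Sult2a4 at chr7:13989589-13989838 (minus strand) and Sult2a3 at chr7:14123049-14123298 (minus strand). In the first 3, capitals mark matches to GCGTG (the core bound by the aryl hydrocarbon receptor), CAAGGNCA (a site of orphan nuclear receptors) and TATAAA (the TATA box). In the Sult2a genes they mark the longest run that both share, of 34 bases.
Cyp1a1: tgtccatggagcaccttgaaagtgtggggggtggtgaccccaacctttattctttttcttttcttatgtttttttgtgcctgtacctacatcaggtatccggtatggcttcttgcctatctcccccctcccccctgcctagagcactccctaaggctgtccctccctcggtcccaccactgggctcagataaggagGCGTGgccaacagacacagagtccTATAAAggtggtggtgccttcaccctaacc
Cyp1a2: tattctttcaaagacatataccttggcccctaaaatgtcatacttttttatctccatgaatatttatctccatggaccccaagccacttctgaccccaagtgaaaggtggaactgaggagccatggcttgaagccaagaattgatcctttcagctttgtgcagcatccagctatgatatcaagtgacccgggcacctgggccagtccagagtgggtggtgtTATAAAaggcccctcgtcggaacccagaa
Cyp8b1: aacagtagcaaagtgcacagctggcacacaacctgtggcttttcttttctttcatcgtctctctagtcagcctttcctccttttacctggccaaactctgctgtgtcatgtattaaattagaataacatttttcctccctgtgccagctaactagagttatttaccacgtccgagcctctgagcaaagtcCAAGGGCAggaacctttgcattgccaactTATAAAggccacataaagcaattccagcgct
Sult2a4: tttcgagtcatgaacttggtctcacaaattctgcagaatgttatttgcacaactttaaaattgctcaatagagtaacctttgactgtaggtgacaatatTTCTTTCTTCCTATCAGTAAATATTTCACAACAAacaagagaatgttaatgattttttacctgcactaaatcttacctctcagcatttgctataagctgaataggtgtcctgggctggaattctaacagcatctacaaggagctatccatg
Sult2a3: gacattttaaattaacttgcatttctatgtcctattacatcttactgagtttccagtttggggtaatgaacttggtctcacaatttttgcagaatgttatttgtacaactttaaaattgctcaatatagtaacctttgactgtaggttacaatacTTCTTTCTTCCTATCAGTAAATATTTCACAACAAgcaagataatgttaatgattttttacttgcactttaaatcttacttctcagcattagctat
Cyp1a1 held GCGTG from base -54 to -50 before the start and TATAAA from -30 to -25. In Cyp1a2 the window held TATAAA, from -29 to -24, and no GCGTG. Cyp8b1 held CAAGGNCA from -60 to -53 and TATAAA from -31 to -26. Searched on both strands of 32851 promoter windows of the same length, GCGTG was in 28.2%, CAAGGNCA in 5.53% and TATAAA in 12.4%, so that each match is a description only. The windows of Sult2a4 and Sult2a3 were 83% identical over 194 aligned bases, with Sult2a4 shifted by 56 bases, and probes for such near copies may read more than 1 transcript, which was not tested.

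Few single probes passed the test. After Benjamini-Hochberg adjustment over 39429 probes, limma put 0 (0%) higher and 2 (0.00507%) lower in DJ526 at an adjusted p of 0.05. By an unadjusted limma p, 922 of the 15816 genes were higher (5.83%) and 734 lower (4.64%). The methods' t-test after the same adjustment called 0 probes either way, from 3155 higher and 1893 lower at an unadjusted p of 0.05. Differences are therefore mostly given as values, with a count of genes whose 3 DJ526 mice all lay above, or all below, the 3 Ctrl mice. Of the 15816 genes, 1930 lay above (12.2%) and 1567 below (9.91%), and the shares of each list are read against these. Over all 39408 probes with a value on the 6 arrays the shares were 12.5% and 8.07%. The median log2 fold change over the 15816 genes was 0.00.

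**Figure D1:**
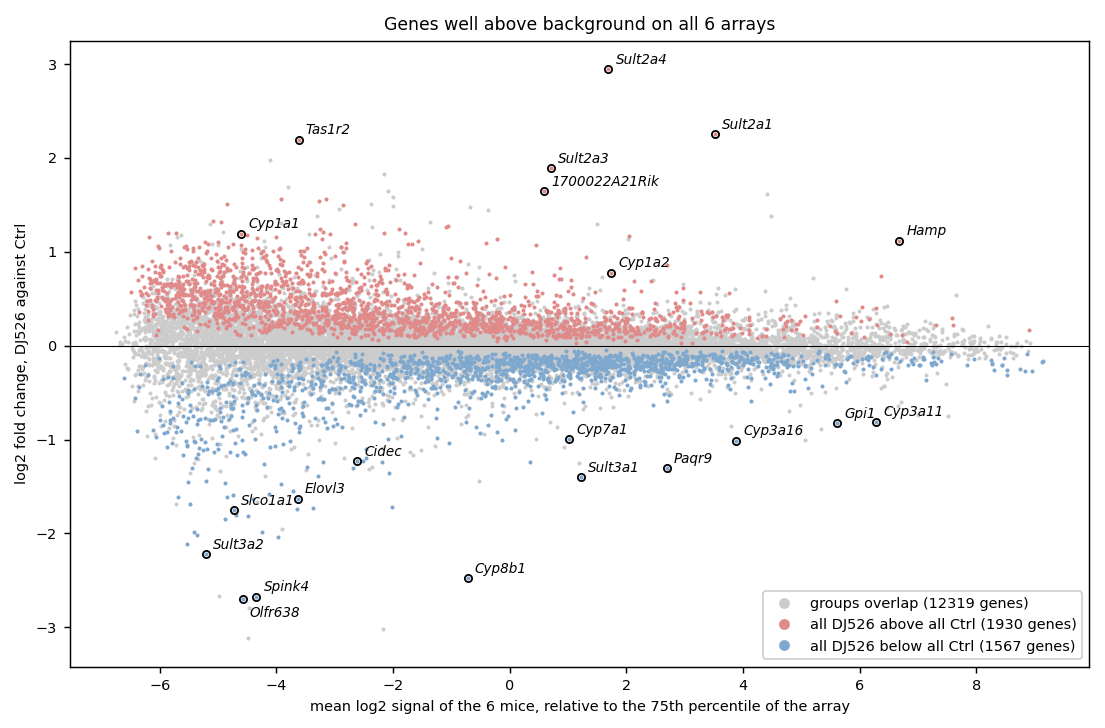
Log2 fold change of DJ526 against Ctrl (vertical axis) against the mean log2 level of the 6 mice (horizontal axis) for the 15816 genes well above background on all 6 arrays, with the 1930 genes that lay above Ctrl in red and the 1567 below in blue. Of the genes without overlap, Olfr638 and Spink4 lie lowest at low signal, while Sult2a4, Sult2a1 and Hamp stand out on the higher side and Cyp8b1 and Paqr9 on the lower side at brighter signal.

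Genes without overlap that also differed at least 2-fold numbered 70 on the higher side and 74 on the lower side. Of the former 5, and of the latter 50, had probes in the lower left of the array, a region described further on. Among those whose mean level over the 12 mice was at or above the 75th percentile, 7 were higher (Sult2a4, Sult2a1, Sult2a3, Hamp, 1700022A21Rik, Gm10639 and Gm3776) and 4 lower (Sult3a1, Paqr9, 2010003K11Rik and Cyp3a16). Their roles, as far as they have known ones, are sulfation, iron balance and drug metabolism.

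Bile acid synthesis showed lower levels at both its control steps. Cyp8b1 was at 0.25, 1.03 and 0.27 in Ctrl and at -1.35, -0.61 and -3.91 in DJ526, a log2 fold change of -2.47 with a standard error of 0.67 (limma's adjusted p = 0.24). All DJ526 mice lay below all Ctrl mice, DJ526 replicate 3 by far the lowest, and without 1 mouse at a time the difference ran from -3.15 to -1.498, the latter without that mouse. Cyp7a1 was at 1.20, 1.28 and 2.08 in Ctrl and at 0.32, 0.57 and 0.69 in DJ526, a difference of -0.99 with a standard error of 0.41 (limma's adjusted p = 0.43). Its groups did not overlap either. A fit with slide as a fixed block ties Ctrl to DJ526 only through the DJ and RS mice. The slide of Ctrl held DJ replicate 1 alone of these, and that of DJ526 RS replicate 3 alone. Values with slide as a fixed block thus lean on single mice, here and below. In that fit Cyp7a1 stood at 0.05 and Cyp8b1 at -3.49 (limma's adjusted p = 0.98 and 0.46), so that the direction of Cyp7a1 was not kept. Against the other diets, Cyp8b1 differed by -2.42 from DJ (limma's adjusted p = 0.31) and by -2.08 from RS (limma's adjusted p = 0.60). All 6 mice of DJ and RS ranged from -0.14 to 1.11, above every DJ526 mouse. For Cyp7a1 the values were 0.20 against DJ, whose mice ranged from -0.53 to 1.42, and -0.72 against RS.

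Of the 21 measured genes of the bile acid list, 1 lay above and 3 below, with a median of -0.00, against 12.2% and 9.91% of all genes. The other member below was Slco1a1, an uptake transporter of bile acids and other organic anions that is low in female liver, at -4.53, -4.23 and -2.81 in Ctrl and -5.44, -5.20 and -6.19 in DJ526. It is dim, and its probe lies in the lower left. Abcb11, which exports bile salts into bile, was the only member above, by 0.28, and stood at -0.01 with slide as a fixed block. Among the carriers of lipids, Abcg5 (0.32) and Abcg8 (0.35), which together export sterols into bile, lay above in all mice, and Abca1 (-0.28), which loads cholesterol onto apolipoprotein A-I, below. With Apoa2 (-0.16) and Apoe (-0.09), apolipoproteins of the blood, also below, the list of apolipoproteins and lipid carriers gave 2 of 20 above and 3 below, with a median of 0.00. The other probe of Apoa2 gave -0.11, with overlap, and Apoe stood at 0.01 after quantile normalization. None of the 25 genes of cholesterol synthesis was outside the Ctrl range in all DJ526 mice, and their median was 0.14.

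The sulfotransferases held some of the largest differences, in both directions. Sult2a4 was at 1.08, -0.22 and -0.20 in Ctrl and at 2.45, 4.91 and 2.14 in DJ526, a log2 fold change of 2.94 with a standard error of 1.37 (limma's adjusted p = 0.47). Sult2a1, which sulfates steroids and bile acids, was at 3.26, 2.01 and 1.89 in Ctrl and at 4.08, 6.15 and 3.70 in DJ526, a difference of 2.25 with a standard error of 1.22 (limma's adjusted p = 0.54). Neither gene's groups overlapped, and in both DJ526 replicate 2 was the highest of its group. Without that mouse the differences were 2.07 and 1.503, and with slide as a fixed block 6.77 and 5.85. The latter lean on single DJ and RS mice, among them DJ replicates 1 and 3, at 5.29 and -0.85 for Sult2a4. The probe of Sult2a4 lies in the lower left of the array. Sult2a3 was higher by 1.89 without overlap, while Sult2a6 (1.62) and Sult2a2 (1.38) were higher on average with overlap at Ctrl replicate 1, though the other probe of Sult2a6 gave 1.71 without overlap. Sult2a7 went the other way, at -1.44, with a slight overlap.

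The sulfotransferase values varied widely among mice of 1 diet. Across the 12 mice Sult2a4 was also high in the 3 RS mice (3.78 to 4.999) and in DJ replicates 1 and 2 (5.29 and 5.02), and low in DJ replicate 3 (-0.85). DJ526 differed from DJ by 0.01 and from RS by -1.03. The high level of this cluster was thus shared with the RS mice and part of the DJ mice, and the spread within DJ entered the standard error. Sult3a1, an amine sulfotransferase that is typical of female liver, was at 1.33, 2.33 and 2.11 in Ctrl and at 1.28, -0.14 and 0.42 in DJ526, a difference of -1.40, and its dim neighbour Sult3a2 differed by -2.22. The groups of both lay apart, those of Sult3a1 only narrowly. In the whole list of 16 measured sulfotransferases 4 lay above (25%) and 3 below (18.75%), with a median of 0.08. Of all genes 12.2% and 9.91% did. The other member above was Sult1d1 (0.41), which sulfates catecholamines and phenols, and the other one below Sult1b1 (-0.20). For the glucuronidation partner, none of 13 measured UDP-glucuronosyltransferases lay outside, and their differences ran from -0.17 to 0.18.

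**Figure D2:**
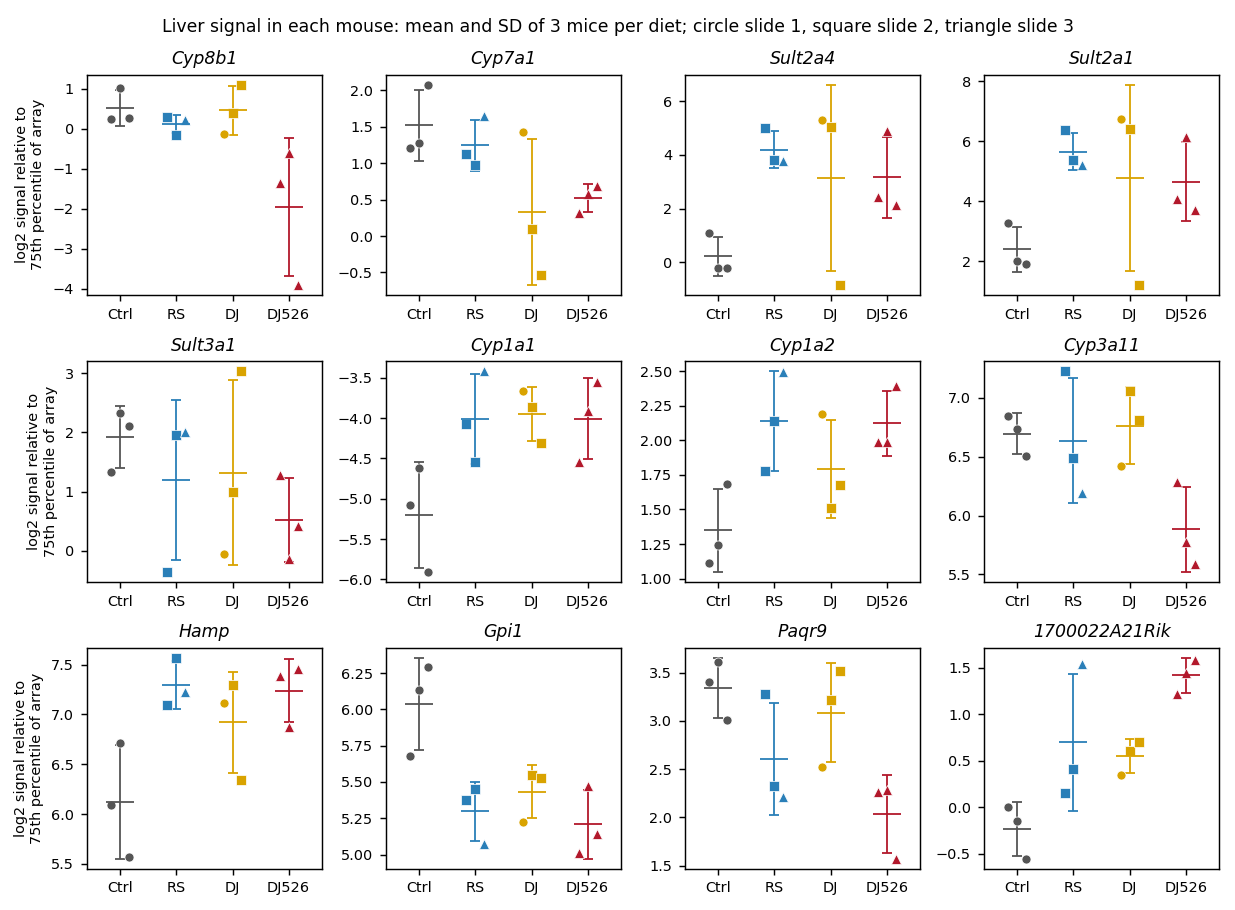
Log2 level, relative to the 75th percentile of the array, of 12 named genes in each of the 12 mice by diet, with the mean and SD of 3 mice and the slide given by the shape of the point. The 3 DJ526 mice are the lowest of all 12 for Cyp8b1, whereas Sult2a4 and Sult2a1 are high in RS, in DJ526 and in DJ replicates 1 and 2.

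Both main targets of the aryl hydrocarbon receptor were higher. Cyp1a2 was at 1.12, 1.24 and 1.69 in Ctrl and at 1.99, 1.99 and 2.40 in DJ526, a log2 fold change of 0.77 with a standard error of 0.23 (limma's adjusted p = 0.27). Cyp1a1, dim in untreated liver, was at -5.08, -4.62 and -5.91 in Ctrl and at -4.54, -3.92 and -3.56 in DJ526, a difference of 1.20 with a standard error of 0.39 (limma's adjusted p = 0.31). Their groups did not overlap, and the differences stood at 0.84 and 0.74 with slide as a fixed block for Cyp1a2 and Cyp1a1. The levels of RS and DJ were close, since DJ526 differed from RS by -0.02 for Cyp1a2 and by 0.01 for Cyp1a1, and from DJ by 0.33 and -0.06. These were 2 of the 8 genes of the receptor's list (25%, against 12.2% of all genes), with none below and a median of 0.26. The summed level of the list ran from 3.24 to 3.43 in Ctrl and from 3.62 to 3.81 in DJ526.

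Of 6 measured Cyp3a enzymes, which metabolise steroids, bile acids and drugs, 3 lay below Ctrl in every DJ526 mouse and none above. Cyp3a11 was at 6.84, 6.73 and 6.50 in Ctrl and at 6.29, 5.78 and 5.59 in DJ526, a log2 fold change of -0.81 with a standard error of 0.26 (limma's adjusted p = 0.31). Its groups did not overlap, and its other probe gave -1.15. Cyp3a16 (-1.01) and Cyp3a59 (-0.46) were lower in every DJ526 mouse as well, though the other probe of Cyp3a59 gave 0.31, with overlap. DJ526 was lower than DJ by -0.88 and than RS by -0.75 for Cyp3a11, and by -1.55 and -1.57 for Cyp3a16. The 3 Cyp3a genes and Cyp2d10 (-0.20) were the 4 below among 34 measured genes of P450 families 2 and 3, with Cyp2j5 (0.42) and Cyp2c38 (0.26) above. That is 11.8% below, near the 9.91% of all genes, the median of the list was 0.08, and none passed limma's test. Cyp2j5 stood at -0.45 with slide as a fixed block. Cyp3a paralogs are close in sequence, and shared signal between their probes was not tested.

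Glutathione S-transferases, which conjugate reactive compounds with glutathione, had 4 of 21 members above (19.05%, against 12.2% of all genes) and none below. Their median of 0.20 ranged from 0.13 to 0.26 over the scalings tried. Gsta2 was at 2.86, 2.24 and 1.70 in Ctrl and at 2.96, 3.27 and 3.13 in DJ526, a log2 fold change of 0.86 with a standard error of 0.61 (limma's adjusted p = 0.64). Ctrl replicate 1 came close to the lowest DJ526 mouse, and the groups only just lay apart. Mgst3 (0.31), Gsta4 (0.26) and Gstt1 (0.12) were the other members above. Gm10639 and Gm3776, outside the list and named for their size, differed by 1.17 and 1.07. Of 19 genes of the Nrf2 and antioxidant list none lay above and 1 below (5.26%, against 9.91% of all genes), with a median of -0.12.

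Genes that turn sugar into fat were lower on average, with wide spread in Ctrl. The share of them that lay below Ctrl was near that of all genes. Srebf1 was at 1.96, 2.13 and 1.94 in Ctrl and at 1.16, 1.71 and 1.83 in DJ526, a log2 fold change of -0.44 with a standard error of 0.27 (limma's adjusted p = 0.58). It was -0.24 without DJ526 replicate 1. Mlxipl, the carbohydrate sensor ChREBP, differed by -0.28, also without overlap, but by -0.12 without Ctrl replicate 2 and by -0.01 with slide as a fixed block, and its other probe gave 0.06, with overlap. The enzymes they drive did overlap. Fasn, the fatty acid synthase, was at 1.94, 4.34 and 4.36 in Ctrl and at 2.09, 3.87 and 2.97 in DJ526, and Elovl6, which lengthens its product, differed by -1.003. Ctrl replicate 1 was low for both, near the lowest DJ526 mouse, and without 1 mouse Elovl6 ran from -1.77 (without Ctrl replicate 1) to -0.50 (without DJ526 replicate 1). Of 19 measured genes of lipogenesis 0 lay above and 2 below (10.53%, against 9.91% of all genes), with a median of -0.28. Among 15 genes for the use of glucose and fructose 0 lay above and 1 below (6.67%), with a median of -0.27. At the unadjusted limma p used for all genes, 0 of the 19 and 2 of the 15 were lower, against 4.64% of all genes. Both medians stayed negative under each scaling, from -0.35 to -0.23 and from -0.33 to -0.18, but after centring by place on the array no gene of lipogenesis lay below.

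The only sugar gene outside was Gpi1, glucose-6-phosphate isomerase, the second step of glycolysis. It was at 5.68, 6.13 and 6.29 in Ctrl and at 5.01, 5.47 and 5.14 in DJ526, a log2 fold change of -0.83 with a standard error of 0.17 (limma's adjusted p = 0.14). Each of its 3 probes placed all DJ526 mice below all Ctrl mice, with differences from -0.83 to -0.69. Gpi1 was lower in RS and DJ than in Ctrl too, and DJ526 differed from them by only -0.09 and -0.23. Pklr, the liver pyruvate kinase, differed by -0.68 and G6pdx, the entry to the pentose phosphate pathway, by -0.87, both with overlap. G6pdx was at 0.15, 3.51 and 3.06 in Ctrl, and its difference ran from -1.92 without Ctrl replicate 1 to -0.24 without Ctrl replicate 2. For the synthesis of glucose, among 11 genes Gpt (0.31) and Pck1 (0.22) lay above (18.2%, against 12.2% of all genes). Pcx (-0.20) lay below (9.09%, against 9.91%). Gpt stood at -0.16 with slide as a fixed block.

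Genes for fat storage and fat use lay below Ctrl at shares near that of all genes. Cidec, a protein of lipid droplets, was at -0.85, -2.48 and -2.68 in Ctrl and at -2.98, -3.11 and -3.63 in DJ526, a log2 fold change of -1.23 that was -0.66 without Ctrl replicate 1. Fabp4, a fatty acid carrier of macrophages and fat cells, was at 1.80, 1.07 and 1.47 in Ctrl and at 0.87, 0.76 and 0.58 in DJ526, a difference of -0.71 with a standard error of 0.22 (limma's adjusted p = 0.28). These were the 2 of 16 lipid droplet genes below (12.5%, against 9.91% of all genes), and none was above. Cidea, another droplet protein, had the largest mean difference of any gene measured on all 6 arrays, -3.12, but it rested on the Ctrl mice, which lay at -0.53, -2.85 and -5.43, and the groups overlapped. In fat oxidation, Slc25a20 (-0.35) and Cpt2 (-0.27), which carry acyl groups into mitochondria, and Fabp1 (-0.25) lay below among 27 genes (11.1%), with none above and a median of -0.12. The adipocyte markers had 3 of 6 members measured, of which 1 lay above, Lep (0.85), the hormone leptin, which was dim and stood at -0.22 with slide as a fixed block. Their summed level ran from 6.36 to 7.37 in Ctrl and from 6.13 to 6.63 in DJ526.

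Hamp was among the genes that differed at least 2-fold. It encodes hepcidin, the liver hormone that limits iron export, and rises with iron load and inflammation. It was at 6.09, 6.71 and 5.57 in Ctrl and at 7.39, 6.88 and 7.46 in DJ526, a log2 fold change of 1.12 with a standard error of 0.30 (limma's adjusted p = 0.24). The groups did not overlap, though Ctrl replicate 2 came near DJ526 replicate 2. RS, at 7.10, 7.56 and 7.22, was as high as DJ526, and the mean of DJ lay between those of Ctrl and DJ526. Of 25 measured acute phase genes only Hamp lay above (4%, against 12.2% of all genes). Serpina3n (-0.32), Fgb (-0.26) and Itih4 (-0.20) lay below (12%, against 9.91% of all genes). The difference was positive for 9 and negative for 16, with a median of -0.05.

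Genes induced by interferon were lower where they lay outside the Ctrl range. Of 27 measured, 6 lay below (22.2%, against 9.91% of all genes) and none above, with a median of -0.18. Over the scalings 5 to 9 lay below with medians from -0.25 to -0.15. None of the 27 reached an unadjusted limma p of 0.05, where 4.64% of all genes did on the lower side. Oas1a, an antiviral sensor of double-stranded RNA, was at 1.94, 1.98 and 2.47 in Ctrl and at 1.61, 1.37 and 1.84 in DJ526, a log2 fold change of -0.52 with a standard error of 0.26 (limma's adjusted p = 0.50). Its other probe gave -0.55, again without overlap. Irf7, a regulator of the interferon response, differed by -0.51, Ifit3 by -0.41, Ifi44 by -0.36, Gbp3 by -0.35 and Rsad2 by -0.30. DJ526 was lower than DJ and RS as well for each of these 6, by at most -0.75, and none of the differences passed limma's test against Ctrl. With slide as a fixed block Gbp3 stood at 0.26 and the other 5 kept a negative value. The markers of Kupffer cells and macrophages had none of 15 outside the Ctrl range and a median of -0.19, and their summed level was 6.86 to 7.62 in Ctrl and 6.64 to 7.11 in DJ526. Their part in the interferon genes was not tested.

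**Figure D3:**
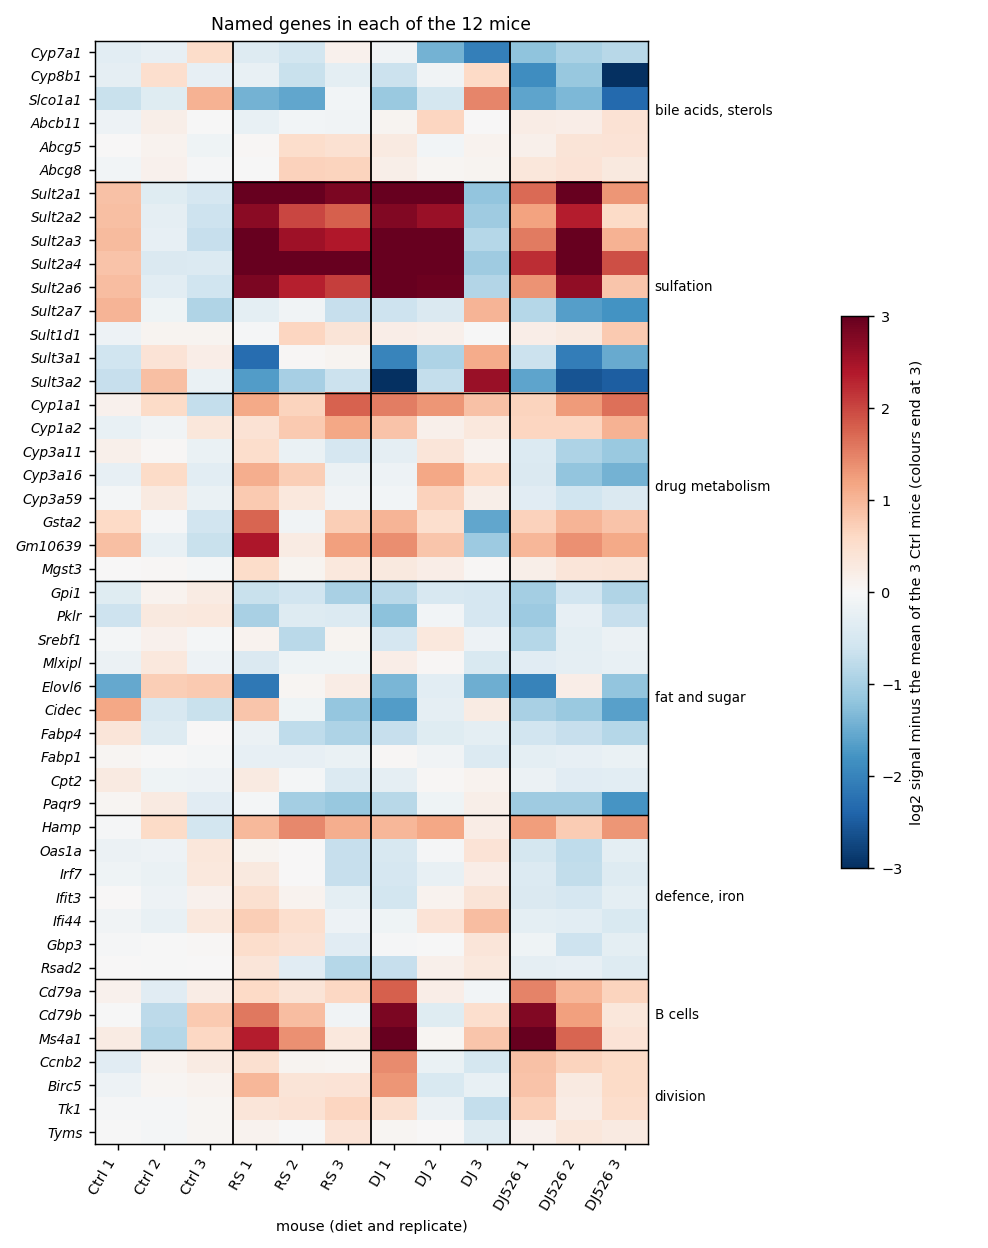
Log2 level of named genes (rows, grouped by role) in the 12 mice (columns), as the difference from the mean of the 3 Ctrl mice, with colours that end at a difference of 3. The interferon genes are lower and Hamp higher in the 3 DJ526 mice than in Ctrl, and the Sult2a genes differ among the mice of DJ.

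The proteins of the ribosome, the proteasome and the respiratory chain, which every cell makes, differed little, and those outside the Ctrl range mostly lay below it. Of 78 ribosomal protein genes 24 lay below (30.8%) and 3 above, where 9.91% and 12.2% of all genes did, and their median was -0.08. Of 34 proteasome genes 9 lay below (26.5%) and none above (median -0.07). Of 73 respiratory chain genes 16 lay below (21.9%) and none above (median -0.08). Examples are Psmc2 (-0.23) and Psmc3 (-0.20) of the proteasome and Ndufs1 (-0.22) and Atp5a1 (-0.25) of the respiratory chain, while Rps21 (0.20) lay above. No gene of these lists passed limma's test. Among the brightest probes, outside the lower left of the array, 13.6% lay below and 7.49% above. The number of ribosomal genes below ran from 17 to 46 over the scalings and their median from -0.15 to -0.04, while the median of all genes ran from -0.07 to 0.04. Those below ran from 7 to 13 for the proteasome and from 8 to 25 for the respiratory chain. Heat shock genes had 4 of 20 below (20%) and none above, with 2 to 10 below and at most 1 above over the scalings.

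Of 25 measured cell cycle genes 4 lay above (16%, against 12.2% of all genes) and none below, with a median of 0.24, and none passed limma's test, also at an unadjusted p of 0.05. Tk1, a thymidine kinase made in S phase, was at 2.70, 2.71 and 2.79 in Ctrl and at 3.45, 2.96 and 3.26 in DJ526, a log2 fold change of 0.49 with a standard error of 0.24 (limma's adjusted p = 0.49). Ccnb2 (0.70) and Birc5 (0.57), both of mitosis, and Tyms (0.24) were the other 3. The summed level of the list was 4.45 to 4.90 in Ctrl and 4.97 to 5.08 in DJ526.

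Markers of B cells were higher on average. Cd79a, part of the B cell receptor complex, was at -5.22, -5.70 and -5.14 in Ctrl and at -3.87, -4.36 and -4.69 in DJ526, a log2 fold change of 1.05 with a standard error of 0.42 (limma's adjusted p = 0.41). The groups did not overlap, with DJ526 replicate 1 the highest. Cd79b (1.45) and Ms4a1 (1.83) were higher on average with overlap, and DJ replicate 1 was as high as DJ526 replicate 1 for all of them. Of the lymphocyte list 9 of 11 genes were measured, 2 above (22.2%, against 12.2% of all genes) and none below, with a median of 0.43. The other member above was Nkg7 (0.35), of killer cells. The summed level of that list was 4.48 to 5.21 in Ctrl and 5.18 to 5.44 in DJ526. In whole liver, fewer cells of a type and less RNA per cell cannot be told apart. The part of lymphocytes in the cell cycle values was not tested.

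Of the sirtuin, AMPK and phosphodiesterase genes, often linked to resveratrol, none passed limma's test. Sirt1, the sirtuin deacetylase, was at 0.17, 0.20 and 0.21 in Ctrl and at 0.24, 0.05 and 0.13 in DJ526, a log2 fold change of -0.05 with a standard error of 0.11 (limma's adjusted p = 0.90), with overlap. Sirt5 (-0.43), a mitochondrial desuccinylase, was the sirtuin that differed most. Of 24 genes for sirtuins and NAD 1 lay above (4.17%), Sirt7 (0.15). Below were 3 (12.5%), Sirt5, Nadk (-0.21) and Qprt (-0.14). Of all genes 12.2% lay above and 9.91% below. Of 10 AMPK and PGC-1 genes 1 lay above (10%), Prkaa1, a catalytic subunit of AMPK, by 0.15, and none below. Among 22 phosphodiesterases 3 lay above (13.6%) and 3 below (13.6%), shares near those of all genes. Pde4b, which breaks down cAMP, was at -1.09, -1.12 and -1.15 in Ctrl and at -1.60, -1.77 and -1.71 in DJ526, a difference of -0.57 with a standard error of 0.12 (limma's adjusted p = 0.13). Its groups lay far apart against their own spread, but its probe is in the lower left, and its other probe gave -0.39. Pde3a (-1.04) was also dim and in the lower left, and Pde1c (0.62) lay above. Foxo3 (0.49) and Foxo1 (0.36), factors restrained by insulin, were the 2 of 15 insulin genes above (13.3%, against 12.2% of all genes), and none lay below. With slide as a fixed block Foxo1 and Pde1c took a negative value. None of 16 core clock genes lay outside, and Nr1d1 differed by 0.996 with overlap. The hour at which the mice were killed is not given in the sources used here.

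Genes under growth hormone, which differ between the sexes in liver, gave 2 of 32 above (6.25%) and 5 below (15.6%), shared in part with the lists above. Of all genes 12.2% and 9.91% did. Elovl3, an elongase higher in male liver, was at -3.21, -2.26 and -2.98 in Ctrl and at -3.93, -3.79 and -5.63 in DJ526, and Igfbp2, an insulin-like growth factor binding protein, differed by -0.48. Both lay apart from Ctrl, but Igfbp2 took a positive value with slide as a fixed block. Around the central vein, Rhbg, an ammonium transporter, was at 0.36, 0.51 and 0.12 in Ctrl and at -0.32, -0.33 and -0.69 in DJ526, a log2 fold change of -0.78 with a standard error of 0.26 (limma's adjusted p = 0.32). It was the only 1 of 20 pericentral genes below (5%). On the other side 3 lay above (15%), Cyp1a2 among them, and the median of the list was 0.02. Of 14 genes of the urea cycle and its periportal neighbours 2 lay above (14.3%), Otc (0.32) and Gls2 (0.22), and 1 below (7.14%). Gls2 took a negative value with slide as a fixed block.

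A pair of bright genes outside these lists had the size of the leading ones. Paqr9, a membrane protein of the progestin and adipoQ receptor family, was at 3.41, 3.61 and 3.01 in Ctrl and at 2.26, 2.28 and 1.57 in DJ526, a log2 fold change of -1.30 with a standard error of 0.33 (limma's adjusted p = 0.20). Its other probe gave -1.31, and neither overlapped. 1700022A21Rik, which RefSeq lists as a transcribed pseudogene, was at 0.01, -0.14 and -0.55 in Ctrl and at 1.22, 1.44 and 1.58 in DJ526, a difference of 1.64 with a standard error of 0.29 (limma's adjusted p = 0.12). The groups of this gene lay far apart, but RS replicate 3, the only other array on the slide of DJ526, stood at 1.53 where the other RS and DJ mice ran from 0.15 to 0.70. With slide as a fixed block the difference was 0.09. Without RS replicate 3 it passed limma's test (adjusted p = 0.00760).

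RS replicate 3 bears on more than this gene. Of the 1930 genes above Ctrl in all DJ526 mice, it lay above all Ctrl mice for 1578 (81.8%), where RS replicates 1 and 2 did for 38.8% and 62.5% and the DJ mice for 36.2% to 60.7%. Of the 1567 below, it lay below for 68.0%, RS replicates 1 and 2 for 38.4% and 58.7%, and DJ replicate 1, on the slide of Ctrl, for 67.3%. Whether slide or diet set these shares was not tested. When RS replicate 3 was left out of the fit, limma called 82 probes higher and 91 lower, of which 0 and 88 lay in the lower left of the array. A630001G21Rik (1.496) and Cst10 (1.33) were among the genes called then, beside 1700022A21Rik, though the other probe of A630001G21Rik gave 0.20, with overlap, and with slide as a fixed block the gene stood at 0.05. By contrast Cyp8b1 (adjusted p = 0.17), Gpi1 (0.0700), Cyp1a2 (0.15) and Hamp (0.18) were not called by limma even so.

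The called probes themselves were dim and lay in 1 place. Olfr638, an olfactory receptor, was at -3.05, -3.28 and -3.35 in Ctrl and at -6.06, -6.46 and -5.28 in DJ526 (limma's adjusted p = 0.0305). Gpr31b, a G protein-coupled receptor, was well above background in the 3 Ctrl mice and in none of DJ526, at least 3.15-fold lower there (limma's adjusted p = 0.0305). Against DJ and RS, the named genes that passed limma's test were these 2 and, against DJ, Olfr1349. Both probes sit in the lower left, here the rows from 381 and the columns to 51 of an array of 532 rows by 85 columns, which holds 16.8% of the probes. Among the dimmest of 3 equal classes of probes, the median log2 fold change there was -0.17 over 2241 probes and 12.7% lay below Ctrl, against 0.13 and 2.84% for 10902 dim probes elsewhere. In the brightest class the medians were 0.02 and -0.03.

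**Figure D4:**
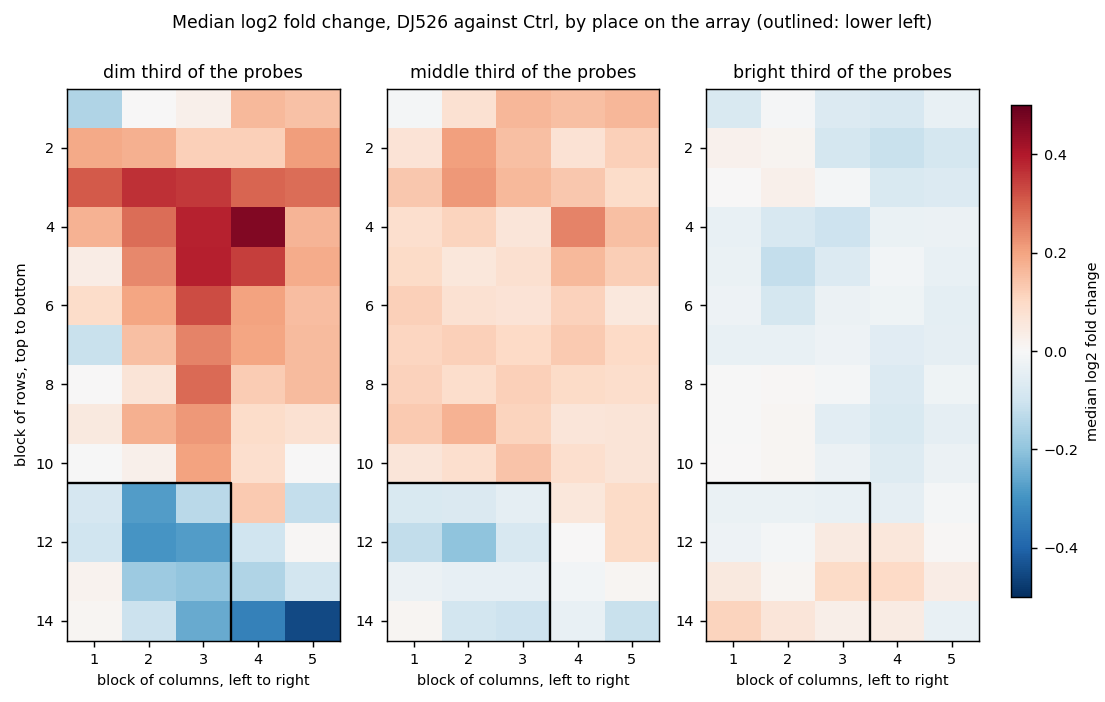
Median log2 fold change of DJ526 against Ctrl (colour) by blocks of rows and columns of the array, for the dim, middle and bright class of the probes, with the lower left outlined. Dim probes are lower in DJ526 in the outlined part (median -0.17) and higher elsewhere (0.13), while the bright class shows no such step (0.02 and -0.03).

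Many of the other largest lower values came from the same region, though not those of Spink4, Cyp8b1 and Sult3a2. Gm21944 (-2.12), Olfr441 (-2.04), Olfr1370 (-2.02), Olfr1349 (-1.99), Taar4 (-1.99), Pkd1l2 (-1.84), Olfr1564 (-1.81) and Olfr671 (-1.80) were all dim genes of the lower left, most of them chemosensory receptors. With slide as a fixed block Olfr441, Olfr1370 and Olfr1564 took a positive sign (2.07, 1.06 and 0.58). Spink4, a protease inhibitor, had -2.67, but it rested on Ctrl replicate 2, at 0.56 where the other Ctrl mice were at -4.81 and -4.77, and it was -0.89 without that mouse. On the higher side, outside that region, stood dim genes such as Tas1r2, a sweet taste receptor, at -4.38, -4.79 and -4.99 in Ctrl and -2.51, -2.72 and -2.34 in DJ526. It was also 2.03 higher than in DJ and 1.78 higher than in RS. Gm15056 (1.56), Sftpa1 (1.54), Mrgprh (1.51) and Ptger3 (1.31) were other dim ones. Of 1071 olfactory receptor genes, 543 were above background on no array of the 6 and 260 on all 6. Among these 260, 114 lay above (43.85%) and 26 below (10%), with a median of 0.32, against 12.2% and 9.91% of all genes. But with normexp background correction 65 and 26 did, with a median of 0.09. After centring by place 87 and 25 did, with a median of 0.20.

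Some genes were well above background in all mice of 1 diet of this comparison and in none of the other. The RS and DJ mice did not enter this count. In Ctrl and not in DJ526 there were 20, of which 16 lay in the lower left. Serpinb3d led them (at least 3.37-fold lower in DJ526), then Gpr31b, 4930563M20Rik (3.13), Fgf15 (2.74) and Tub (2.45). The means of Gpr31b were -5.55 in DJ and -5.57 in RS, near the -5.52 of Ctrl. In DJ526 and not in Ctrl there were 100, of which 1 lay in the lower left. Olfr493 led these (at least 2.92-fold higher), then Glis3 (2.53), Olfr726 (2.41), Slc9a2 (1.98) and Rtl9 (1.94). Olfr493 was at -5.54 and -5.43 in RS replicates 1 and 3, near its DJ526 mean of -5.34. Glis3 was at -5.20 in RS replicate 3 (DJ526 mean -5.70), and its difference stood at -0.57 with slide as a fixed block. Fgf15, a hormone made by the ileum, is among the genes a liver has little of. None of the 100 was called by limma.

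Genes for qRT-PCR had been chosen by the study on these same arrays, so that their array values are no independent evidence. Of 12 such genes with a probe, 8 were well above background on all 6 arrays, 4 of them above Ctrl in every DJ526 mouse, namely Sult2a4, Sult2a1, Slc49a4 (0.78) and Spock1 (0.47). Slc49a4 was at 0.18, 0.16 and -0.35 in Ctrl and at 0.51, 0.86 and 0.96 in DJ526, and its values against the other diets were 2.24 (DJ, limma's adjusted p = 0.28) and 3.18 (RS, limma's adjusted p = 0.23). Pde5a had a like pattern, 0.17 against Ctrl, with overlap, but 2.71 against DJ and 4.08 against RS. Of Ctrl and DJ526, Ap3b2 was well above background only in DJ526 and Pnoc only in Ctrl. Gpr31b, 1 of the 2 called probes, is the Gpr31c of the study's primers and so also 1 of the 12. In the study's qRT-PCR, on RNA of the same livers, Sult2a4, Sult2a1 and Slc49a4 (its Dirc2) were higher in DJ526 than in Ctrl. Pnoc and Gpr31c were lower there, as on the arrays. For Gpr31c, however, qRT-PCR was lower still in DJ, whereas the array means of DJ and Ctrl were close (-5.55 and -5.52). Spock1, Ap3b2 and Pde5a were also lower in DJ526 than in Ctrl by qRT-PCR, whereas their array means were higher than in Ctrl. Against RS, qRT-PCR of Pde5a was lower in DJ526, opposite to the arrays, and against DJ it was higher. Slc49a4 was higher in DJ526 than in both by qRT-PCR too, but by a smaller fold than on the arrays.

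**Figure D5:**
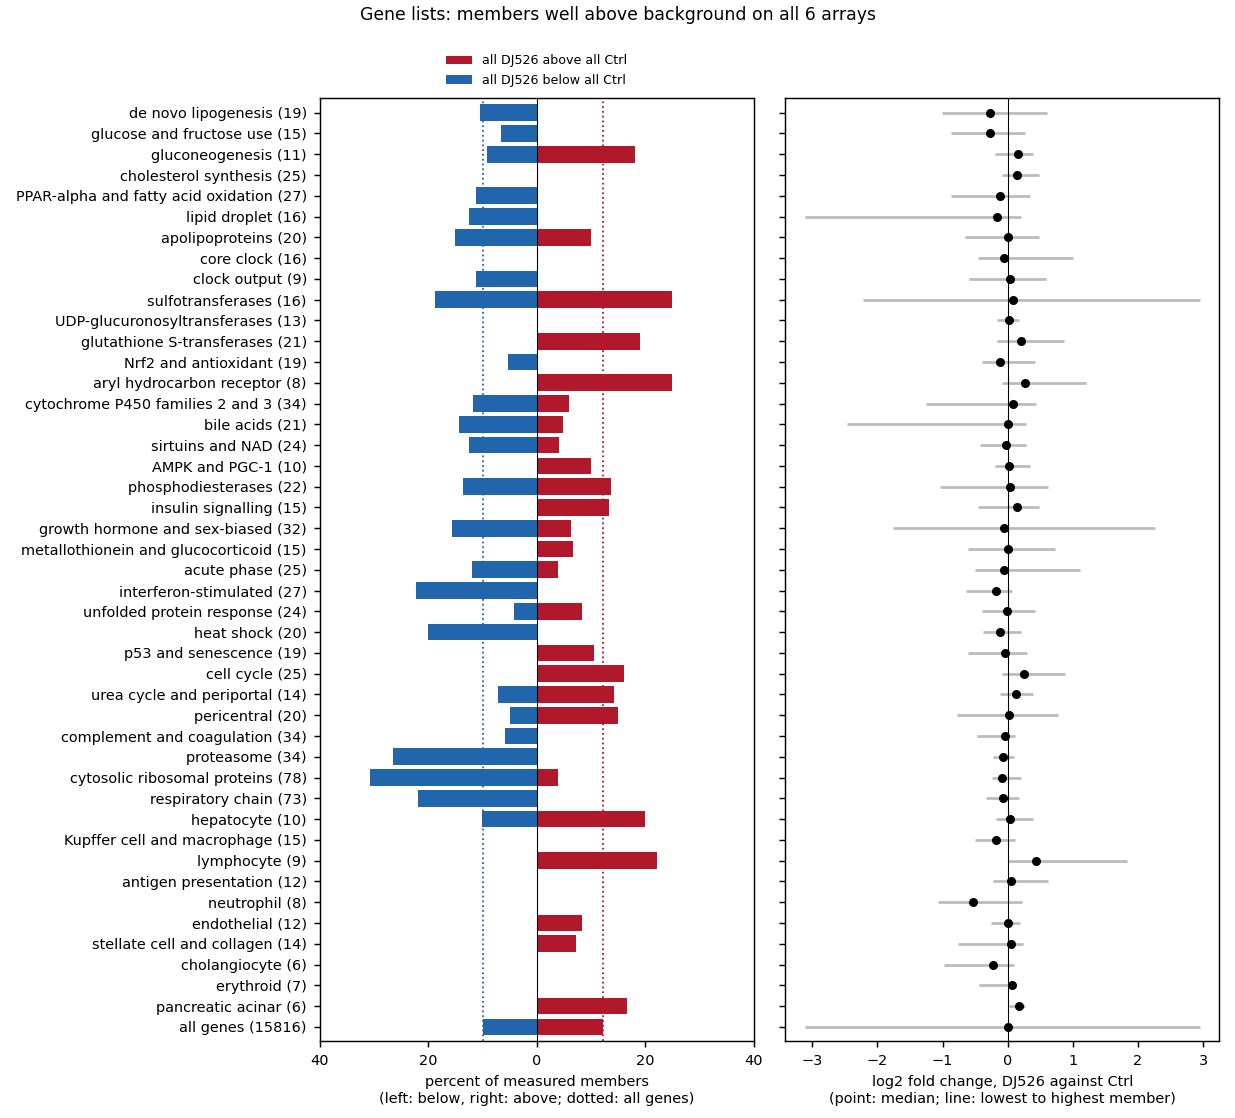
Left, the percent of measured members of each gene list whose 3 DJ526 mice all lay above (red) or below (blue) the 3 Ctrl mice, with the shares of all genes, 12.2% and 9.91%, dotted. Right, the median log2 fold change of each list and its lowest and highest member, where sulfotransferases span -2.22 to 2.94 and ribosomal proteins keep a median of -0.08.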

How the data were processed

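The 12 arrays were grouped by their titles (3 mice each for Ctrl, RS, DJ and DJ526). For each array the authors deposited the signal intensity of every spot from Feature Extraction (version 11.5.1.1, per the file headers), with a background-subtracted processed signal and flags, and a table of globally normalized intensity values. Aside from control spots, 43020 spots per array were used, less 93 to 197 flagged as outliers. Spots of a probe were averaged, divided by the 75th percentile of their array (953 to 1167) and put on the log2 scale, and no spot was saturated. The authors deposited no log2 values. The number of arrays limits the precision. RefSeq accessions (GRCm38.p6) named 27508 probes and the primer table of the study 2 more, 11919 had no name, and 68 lacked a value on some array.

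All 12 arrays entered 1 fit in limma 3.58.1 (R 4.3.3), with a mean for each diet and a trended prior variance. The fit left 8 residual degrees of freedom, to which the prior added a median of 2.98. It used Benjamini-Hochberg adjustment over 39429 probes. Its p-values rest on the spread among mice of the same diet, pooled over the diets. The arrays of DJ and of RS lay on more than 1 slide, so that this spread also holds differences between slides. Standard errors come from that fit. A probe measured in 1 group only gives an at-least fold, the mean of that group against, per array, the higher of the dim probe's own value and the lowest signal among probes well above background. Named were the called probes, the 12 highest and 12 lowest genes without overlap, up to 6 such members of each list, some defining members, up to 5 genes each way measured in 1 group only, and a few genes chosen after their values were seen (Paqr9, Gm10639, Gm3776, 2010003K11Rik and those of the closing section). One gene under this rule, also left out of its list, is not reported here. The members and lists were chosen with earlier results of these data known. Alternatives covered the arrays fitted, dim probes, scaling, normexp background correction (offset 50), outlier spots, the variance prior, blocks for slide and replicate number, each mouse, and the methods' t-test and Z ratio. Those on the place on the array were added after seeing the data. The tools were tested on simulated data. Tables and figures used Python 3.11.15, numpy 2.4.6, pandas 2.3.3 and matplotlib 3.10.9.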

Additional observations from a re-analysis of the deposited data

How the results depend on the processing

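With slide as a fixed or a random block, with replicate number as a block, with only the 6 arrays of both diets, without the variance trend or with normexp, limma called 0 probes either way, where the fit reported here called 0 higher and 2 lower. The replicate block gave 0 and 0, and the deviations of mice with the same number correlated at -0.01, -0.07 and -0.07, so that the numbers share no more than a label. It called 1 lower among probes well above background on all 6 arrays, 4 among those above it on all 3 arrays of a group, 4 with the median as the scale, and 2 higher and 7 lower after quantile normalization. Leaving out 1 mouse gave 0 to 82 higher and 0 to 91 lower, both highest without RS replicate 3 (without RS replicate 1, 2 and 6). Without the lower left of the array, a choice made after seeing the data, limma called 0 lower. The methods' t-test gave 3155 higher and 1893 lower unadjusted and 0 and 0 adjusted, and their Z ratio beyond 1.5 gave 873 and 652. The causes were not tested.

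Probes with all DJ526 mice above Ctrl numbered 4936 and those below 3180, but 3376 and 4719 with the median as the scale, 5372 and 2939 with the 75th percentile of detected probes, 4305 and 4216 after quantile normalization, 6239 and 2395 in the deposited table, 3791 and 4033 with normexp and 3910 and 4015 after centring by place, chosen after seeing the data. Without 1 mouse they ran from 6222 to 8750 and from 4555 to 5627. The balance between higher and lower thus depends on the scale.

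Of 129 genes named, 107 kept their direction under each alternative that gave them a value, and 95 had a value under all 27. With slide as a fixed block the log2 fold change took the other sign for Olfr441 (2.07), Olfr1370 (1.06), Olfr1564 (0.58), Serpinb3d (0.59), Glis3 (-0.57), Gpt (-0.16), Cyp2j5 (-0.45), Cyp7a1 (0.054), Abcb11 (-0.010), Pde1c (-0.054), Foxo1 (-0.16), Igfbp2 (0.11), Gbp3 (0.26), Gls2 (-0.28), Nr1d1 (-1.01), Lep (-0.22) and Sirt1 (0.28). With normexp it did for Cpt2 (0.080), Cyp2d10 (0.035), Atp5a1 (0.067) and Pde5a (-0.062), with centring by place for Sirt1 (0.015), and after quantile normalization for Apoe (0.0078). Without 1 of the 6 mice 34 of the 129 values moved by over 1.5 times, and Pde5a ran from -0.21 to 0.37, the lowest without Ctrl replicate 3. How far array number and signal over background each limit the precision was not tested.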

Other observations

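Genes read by several probes give a check on single probes only, since all probes share the RNA and the slide of their array. Of 4030 genes with 2 or more probes well above background on all 6 arrays, 100 had every probe above Ctrl in all DJ526 mice (2.48%) and 127 every probe below (3.15%), while 57 had a probe each way. Of the 655 with 3 or more probes 5 had all above and 10 all below. Beside Gpi1, Paqr9, Cyp3a11 and Oas1a, this set held the following genes, chosen after their values were seen. Igf2bp2, an RNA binding protein, was at -3.38, -2.56 and -3.53 in Ctrl and at -4.08, -4.11 and -4.04 in DJ526, and its probes gave log2 fold changes of -0.92 and -0.85. Trim13, a ubiquitin ligase of the endoplasmic reticulum, gave -0.82 and -0.84. The Igf2bp2 probe at -0.85 and the Trim13 probe at -0.84 lie in the lower left of the array. In Hmgn2, a nucleosome binding protein, 4 probes gave -0.53 to -0.47. Star, which brings cholesterol into mitochondria for steroid synthesis, was at -4.40, -4.38 and -4.33 in Ctrl and at -3.70, -3.43 and -3.37 in DJ526, and its probes gave 0.87 and 0.49. In each of these 4 genes the DJ526 mice lay outside the Ctrl range for every probe, and none passed limma's adjusted test.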
